A study of Mus musculus with 6 samples.

Results

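Interferon-stimulated genes are switched on when cells sense interferons, and LPS can trigger the production of type I interferons and of interferon gamma. The 52 mouse genes described here were given as a list of type I and type II interferon-stimulated genes. They were located on the arrays by the accession of each probe, and the brightest probe stood for its gene. Of the 52 genes, 48 had a matched probe, out of 22911 genes matched in all. Oas1b, Mx1, Mx2 and Cxcl11 had no matched probe and are not analysed here.

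Lung RNA came from male C57BL6 mice aged 10 weeks, starved for 16 h and injected i.p. with LPS at 20 mg/kg. At 3 and 24 h after LPS, 3 mice received saline and 3 received recombinant human thrombomodulin (rhTM), a soluble form of an endothelial anticoagulant receptor, and lungs were taken 30 h after LPS. Each mouse had its own 1-colour Agilent array, on which the brightness of a probe reports the amount of its transcript. All 6 mice had LPS and none of the arrays is from an LPS-free lung, so the comparison addresses rhTM against saline in endotoxaemic lung and not the response to LPS itself.

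The scanner output and the value table of the authors name 2 arrays differently. The values under saline mouse 1 in the scanner output are those under rhTM mouse 2 in the table, and the reverse, with 99.8% of probes equal to within 0.1% in that exchanged match. Neither the labels nor the methods settle which is right, so the scanner output was used as deposited and results with the table's assignment are given as well. Mice are named by the scanner output throughout, and values on each array are listed in the order of mice 1, 2 and 3. They are log2 signals relative to the 75th percentile of the array, and a fold change is the rhTM mean minus the saline mean on that scale. Levels of different probes are not comparable with each other.

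Type I interferons act through the receptor IFNAR, the kinases JAK1 and TYK2, and a complex with STAT2 and IRF9 that binds the interferon-stimulated response element (ISRE) in promoters. Interferon gamma acts through its own receptor and on the gamma-activated site (GAS). The induced genes encode antiviral effectors, nucleic acid sensors, GTPases that attack the vacuoles of intracellular microbes, chemokines for T cells, and feedback regulators.

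Promoter sequences show which of these elements the members carry. RefSeq promoters of the GRCm38.p6 assembly, from 250 bases before to 50 bases after the annotated start, were available for 37 of the 52 members. The core ISRE was searched as GAAANNGAAA and the core GAS as TTCNNNGAA, each on both strands, with overlapping matches allowed. A gene counted if any of its promoters matched. An ISRE core lay in 20 of the 37 members (54.1%), against 3.99% of the 27025 genes with a promoter. A GAS core lay in 12 members (32.4%), against 9.55% of those genes, and 7 members held both (18.9%, against 0.614%). Every one of the 7 members with a promoter among the guanylate-binding proteins and immunity-related GTPases (Gbp2, Gbp3, Gbp5, Gbp7, Igtp, Irgm1 and Irgm2) held an ISRE core, and Gbp5, Gbp7, Igtp and Irgm2 held a GAS core as well. With the upstream bases alone, an ISRE core lay in 17 members (45.9%) and a GAS core in 11 (29.7%). A match is a description of the sequence and does not show that a factor is bound.

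The windows below are shown because they hold these elements in genes described later, namely tandem ISRE cores (Isg15, Ifit1, Irgm1), a GAS core without an ISRE core (Irf1) and both elements (Irgm2, Igtp, Gbp7). Capitals mark the bases of every match, and each window is written 5′ to 3′ in the direction of the gene with up to 15 further bases on either side. Isg15 is from chr4:156200860-156200911 (minus strand), from -93 to -42 relative to the start, with 3 overlapping ISRE cores. Ifit1 is from chr19:34640770-34640828 (plus strand) with 2 ISRE cores, and Irf1 from chr11:53769909-53769947 (plus strand) with 1 GAS core. Irgm1 is from chr11:48871421-48871465 (minus strand), ending at the base before the start, with 2 ISRE cores. Irgm2 is from chr11:58214887-58214937 (plus strand) and Igtp from chr11:58199496-58199546 (plus strand), each with 1 GAS core followed by 1 ISRE core. Gbp7 is from chr3:142530215-142530307 (plus strand) with 2 GAS cores and 1 ISRE core.
Isg15: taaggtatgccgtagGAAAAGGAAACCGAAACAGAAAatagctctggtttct
Ifit1: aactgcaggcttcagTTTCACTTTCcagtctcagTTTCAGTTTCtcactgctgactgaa
Irf1: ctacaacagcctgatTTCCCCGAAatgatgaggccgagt
Irgm1: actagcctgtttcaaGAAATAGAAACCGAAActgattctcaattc
Irgm2: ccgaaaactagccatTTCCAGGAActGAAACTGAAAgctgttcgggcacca
Igtp: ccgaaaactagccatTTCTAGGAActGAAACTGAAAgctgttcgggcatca
Gbp7: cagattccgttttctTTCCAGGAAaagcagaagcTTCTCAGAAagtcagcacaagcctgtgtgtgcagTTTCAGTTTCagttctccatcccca
The windows of Igtp and Irgm2, neighbouring paralogues on chromosome 11, were identical at 49 of 51 bases (96.1%).

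All 48 members with a probe were well above background on each of the 6 arrays. No member differed between rhTM and saline mice after adjustment over all 16362 genes tested (limma, lowest adjusted p = 0.9999), where 0% of all genes passed. At an unadjusted p under 0.05, limma called 0 members and 1.86% of all genes. In 0 members were all rhTM arrays above or all below the saline arrays, against 5.52% of all genes. Fold changes ran from -0.29 (Oas1g) to 0.33 (Iigp1) and were under 0.1 in size in 28 members. In 38 of 48 members the difference was smaller than the standard deviation (SD) within groups, as in 77.6% of all genes. In bulk lung, fewer cells of a type and less RNA per cell cannot be told apart.

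The precision bounded these differences. The 95% interval of the fold change (limma, 3 arrays against 3) lay within ±1 log2 unit, a 2-fold change, for 47 of 48 members (97.9%, against 88.1% of all genes). The exception was the chemokine gene Cxcl10. The interval lay within ±0.5 log2 units, a 1.41-fold change, for 29 members (60.4%, against 46.6%). The SD within groups had a median of 0.19 over the members, against 0.21 over all genes.

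The median fold change of the members was 0.04, against 0.0026 over all genes. By sign, 33 members were higher and 15 lower in rhTM mice (68.8% higher, against 50.7% of all genes). That split depended on scaling and on single mice. It was 23 higher and 25 lower after quantile normalization, 26 and 22 with the 75th percentile of probes above background, and 18 and 30 without saline mouse 3, where the median turned to -0.04. It was 27 and 21 without rhTM mouse 2, 29 and 19 without rhTM mouse 3, and 36 and 12 without saline mouse 1.

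With the table's assignment, 0 of 48 members passed adjustment (limma, lowest adjusted p = 0.3133), where 0% of 16312 genes passed. At an unadjusted p under 0.05 limma called 5 members, all higher in rhTM mice (Xaf1, Trim30a, Gbp5, Irgm1 and Iigp1), and 6.95% of all genes as higher. The groups did not overlap for 9 members that were higher (Isg15, Dhx58, Rtp4, Xaf1, Trim30a, Gbp5, Irgm1, Iigp1 and Cd274) and for 1 that was lower (Ifi35), together 20.8% of the members. Without overlap were 21.7% of all genes, 9.68% higher and 12% lower. The median fold change was 0.09, against -0.0248 over all genes, and the range was -0.18 to 0.43. A member was higher with both assignments in 25 cases and lower with both in 6 (Oas1a, Oas1g, Irf1, Ifi35, Gbp6 and Cxcl10), and the sign differed in 17.

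**Figure D1:**
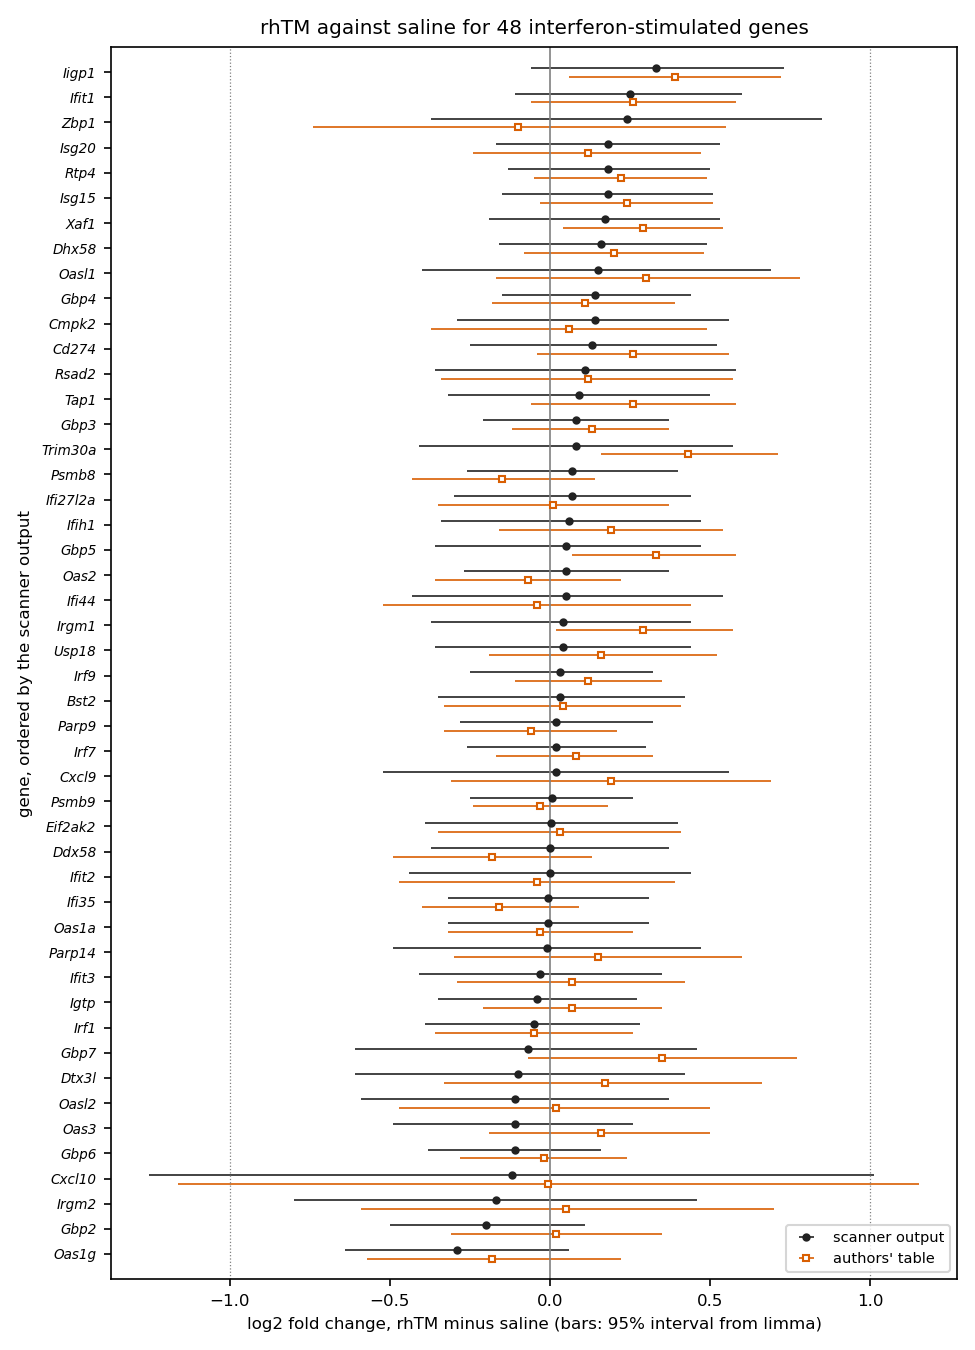
Fold change of rhTM against saline mice for the 48 members on the log2 scale, with the assignment of the scanner output (filled circles) or of the authors' table (open squares), with 95% intervals from limma as bars. All intervals by the scanner output include 0, and those of 47 members stay between the dotted lines at ±1.

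For most members, mice within a group differed more than the groups did. Saline mouse 3 held the lowest signal of 22 members (45.8%, against 10.1% of all genes) and lay below the mean over 6 arrays in 42 members. The median deviation of the members from that mean was -0.20 in this mouse, against 0.00 over all genes. In saline mice 1 and 2 it was 0.08 and 0.03, and in the 3 rhTM mice 0.05, 0.02 and 0.00. Saline mouse 3 was thus the only array on which the member median was more than 0.1 away from 0. This held with normexp background correction (-0.18), quantile normalization (-0.18) and the 75th percentile of probes above background (-0.17).

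The other mice shared out the highest signals. Saline mouse 1 and rhTM mouse 1 each held the highest signal of 16 members (33.3% each, against 13.3% and 29.8% of all genes). On rhTM mouse 1 they were Ifit1, Isg15, Oasl1, Irf7, Dhx58, Zbp1, Rsad2, Cmpk2, Isg20, Rtp4, Xaf1, Gbp3, Iigp1, Cxcl9, Tap1 and Cd274. On saline mouse 1 they were Ifit3, Usp18, Oas3, Oasl2, Irf1, Irf9, Ifih1, Eif2ak2, Dtx3l, Parp14, Gbp2, Gbp5, Gbp7, Irgm1, Irgm2 and Cxcl10. On rhTM mouse 1, 10 other members were at their lowest (20.8%, against 26.6% of all genes). These were Oas1g, Oasl2, Irf1, Bst2, Ifi44, Dtx3l, Parp14, Gbp2, Irgm2 and Cxcl10.

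**Figure D2:**
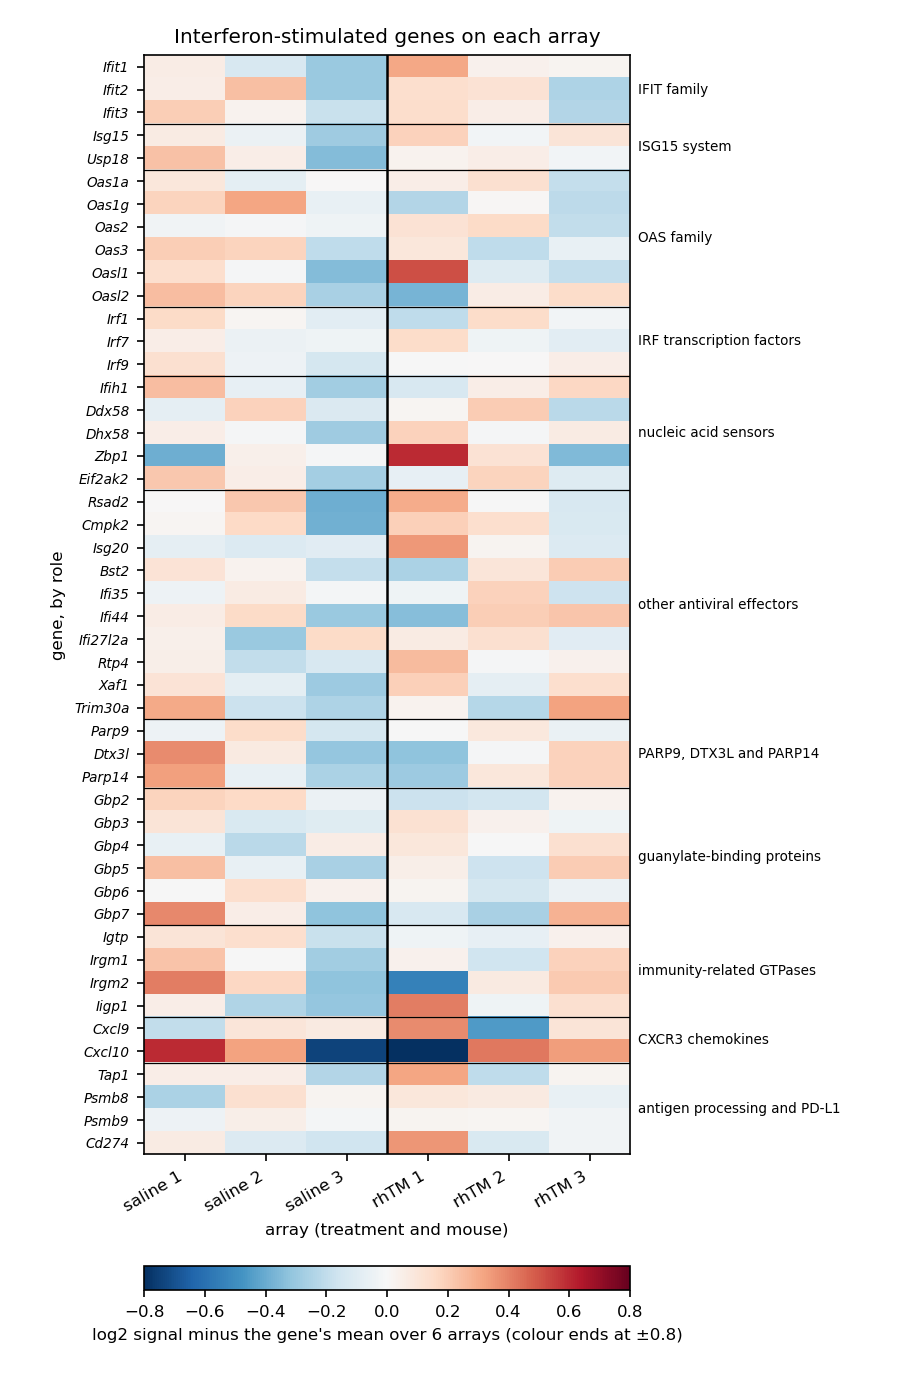
Log2 signal of each of the 48 members on each array, minus the member's mean over the 6 arrays (red above, blue below), with members ordered by role and the groups parted by a vertical line. Blue prevails in the column of saline mouse 3, and the column of rhTM mouse 1 holds both strong red (Zbp1, Oasl1) and strong blue (Cxcl10, Irgm2).

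**Figure D3:**
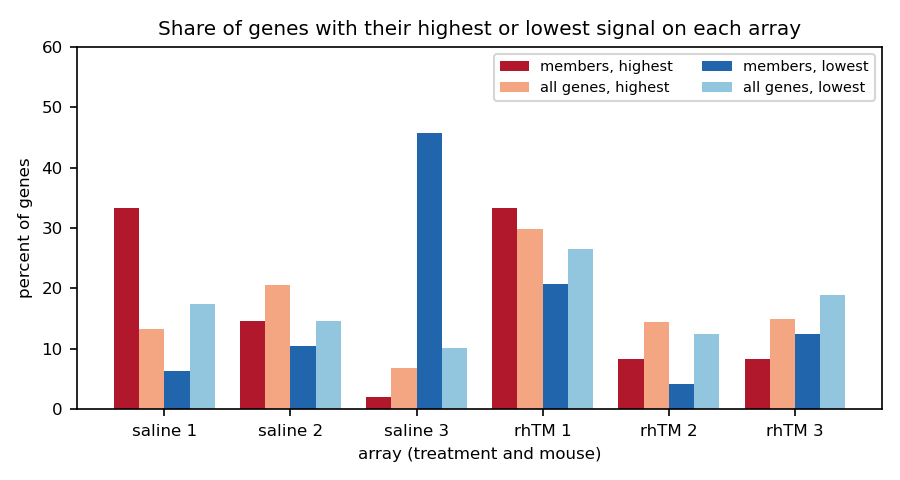
Percent of the 48 members and of all genes tested that had their highest or lowest signal on each array. Saline mouse 3 held the lowest signal of 45.8% of members and 10.1% of all genes.

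The arrays lay on 2 slides, each scanned in its own session. By the scanner output slide 2 held saline mouse 1 and rhTM mouse 3, and slide 1 the other 4 mice. Both slide 2 arrays were above all slide 1 arrays in 10 members (20.8%, against 13% of all genes), namely Irf9, Ifih1, Bst2, Trim30a, Dtx3l, Parp14, Gbp5, Gbp7, Irgm1 and Irgm2. They were below in 4 members (8.33%, against 19.7%). Within slide 1, 2 rhTM against 2 saline mice, 36 members were higher and 12 lower with a median of 0.11. Within slide 2, 1 mouse against 1, 12 were higher and 36 lower with a median of -0.10. By the table's assignment slide 2 held 2 rhTM mice and no saline mouse, so that rhTM and saline share slide 1 only, where rhTM mouse 1 against 3 saline mice gave a median of 0.10. The spike-in standard, a dilution series of added transcripts, had a slope of 0.826 on the array of saline mouse 1 and of 1.07 to 1.09 on the others.

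The IFIT proteins bind foreign RNA and block its translation. Ifit1 read 2.34, 2.15 and 1.98 in saline mice and 2.59, 2.32 and 2.30 in rhTM mice. Its groups overlapped through saline mouse 1 alone, which lay just above rhTM mice 2 and 3. The difference in Ifit1 was 0.25 ± 0.15 (SE, exact permutation p = 0.3), and 0.26 ± 0.13 with the table's assignment (exact permutation p = 0.2). Ifit2 read 0.25, 0.43 and -0.11 in saline mice and 0.33, 0.31 and -0.06 in rhTM mice, with 1 low mouse in each group and a fold change of 0.0009, and of -0.04 by the table. The fold change of Ifit3 was -0.03.

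ISG15 is a ubiquitin-like protein conjugated to newly made proteins, and USP18 removes it and blocks signalling at IFNAR. Isg15, whose tandem ISRE cores are printed above, read 6.10, 5.99 and 5.75 in saline mice and 6.22, 6.01 and 6.14 in rhTM mice. Saline mouse 3 was lowest and rhTM mouse 1 highest, and the other 4 mice were interleaved. Isg15 thus had a fold change of 0.18 ± 0.14 (SE, exact permutation p = 0.2). With the table's assignment the groups of Isg15 did not overlap, at a fold change of 0.24 ± 0.11 (limma, adjusted p = 0.389), and the exact two-sided permutation test gave 0.1, the smallest p that 3 mice against 3 allow. Usp18 read 3.15, 2.97 and 2.58 in saline mice and 2.95, 2.97 and 2.90 in rhTM mice. The rhTM values of Usp18 lay inside the saline range, at a fold change of 0.04 ± 0.17, and of 0.16 ± 0.15 by the table.

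The OAS enzymes make the second messenger that activates RNase L, and the OASL proteins are their relatives. Of the 6 tested, 2 were higher and 4 lower in rhTM mice, with a median of -0.06, and with the table's assignment 3 were higher and 3 lower. Oas1g had the lowest fold change of all members. It read -0.71, -0.58 and -0.95 in saline mice and -1.12, -0.88 and -1.10 in rhTM mice. The groups overlapped only because rhTM mouse 2 lay above saline mouse 3. This gave a fold change of -0.29 ± 0.15 (SE, exact permutation p = 0.2), and -0.18 ± 0.16 with the table's assignment. Oas1g has close paralogues whose transcripts may bind the same probe, as do the IFIT, GBP and IRG genes. Oasl1 read 3.01, 2.86 and 2.53 in saline mice and 3.38, 2.77 and 2.68 in rhTM mice, at a fold change of 0.15 ± 0.23, and of 0.30 ± 0.20 by the table. Only rhTM mouse 1 lay above the saline range of Oasl1, and without it the fold change was -0.07. The remaining OAS genes had fold changes of -0.0059 (Oas1a), 0.05 (Oas2), -0.11 (Oas3) and -0.11 (Oasl2).

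The IRF transcription factors carry the response forward. IRF7 amplifies production of type I interferon, IRF9 is the DNA-binding partner of STAT2, and IRF1 drives many genes of interferon gamma. Irf7 and Irf9 were among the members that varied least, with an SD over all 6 mice of 0.08 and 0.09 and fold changes of 0.02 and 0.03. The other probe of each gave -0.26 and -0.18, and probes differed in sign in 8 of the 16 members with several probes, by either assignment of arrays. Irf1 read 4.85, 4.71 and 4.61 in saline mice and 4.50, 4.84 and 4.68 in rhTM mice. Its groups overlapped throughout, at a fold change of -0.05 ± 0.14. The other Irf1 probe, far dimmer (mean signal 247.3 against 19890), gave -0.54, and both probes gave -0.05 by the table.

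Among the sensors of nucleic acids, Ifih1 (MDA5), Ddx58 (RIG-I) and Dhx58 (LGP2) recognise RNA, Eif2ak2 (PKR) halts translation on double-stranded RNA, and Zbp1 recognises Z-form nucleic acid and can start necroptosis. All 5 had a fold change above 0, with a median of 0.06, but 2 of the 5 were below 0 with the table, normexp, quantile normalization or the other percentile. Dhx58 read 1.24, 1.18 and 0.91 in saline mice and 1.37, 1.18 and 1.25 in rhTM mice. Saline mouse 3 stood below the rest, and the fold change was 0.16 ± 0.14 (SE, exact permutation p = 0.2), and 0.20 ± 0.12 without overlap by the table. Zbp1 read 2.60, 3.03 and 2.98 in saline mice and 3.59, 3.10 and 2.64 in rhTM mice. Saline mouse 1 and rhTM mouse 3 were the lowest in Zbp1 and rhTM mouse 1 the highest, and its fold change changed sign with the assignment, from 0.24 ± 0.26 to -0.10 ± 0.27. The fold changes of its 2 probes were -0.05 and 0.24.

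The other antiviral effectors include viperin (Rsad2), which makes a chain-terminating nucleotide, the nucleotide kinase Cmpk2, the exonuclease Isg20, the tetherin gene Bst2, and the pro-apoptotic Xaf1. Of 10, 9 were higher in rhTM mice and 1 lower, with a median of 0.10, against 8 and 2 by the table and 7 and 3 after quantile normalization. Rtp4, which encodes a negative regulator of the response, read 5.25, 5.02 and 5.08 in saline mice and 5.46, 5.20 and 5.25 in rhTM mice. Only saline mouse 1 reached the rhTM range. Its fold change was 0.18 ± 0.13 (SE, exact permutation p = 0.3), and 0.22 ± 0.11 without overlap by the table (limma, adjusted p = 0.410).

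Xaf1, Trim30a and Ifi35 had overlapping groups by the scanner output and none by the table. Xaf1 read 3.27, 3.09 and 2.87 in saline mice and 3.36, 3.09 and 3.30 in rhTM mice, with saline mouse 3 lowest. Its fold change was 0.17 ± 0.15, and 0.29 ± 0.10 by the table (limma, adjusted p = 0.326), where its other probe gave -0.12. Trim30a, which encodes an inhibitor of Toll-like receptor signalling, read 2.01, 1.54 and 1.46 in saline mice and 1.74, 1.48 and 2.03 in rhTM mice. The highest values belonged to saline mouse 1 and rhTM mouse 3, the mice of slide 2. Trim30a had a fold change of 0.08 ± 0.21, which became 0.43 ± 0.11 under the table (limma, adjusted p = 0.313), where both slide 2 mice count as rhTM. Without rhTM mouse 1 the table called Trim30a, alone among the members, at 0.53 ± 0.08 (limma, adjusted p = 0.036), in a fit that called 3.56% of all genes. In that fit both rhTM arrays lay on slide 2 and all saline arrays on slide 1, so treatment and slide cannot be told apart. Within the table the fold change with the slide as a block was 0.24 (limma, adjusted p = 0.192). Ifi35, which encodes an interferon-induced leucine zipper protein, read 5.01, 5.11 and 5.03 in saline mice and 5.02, 5.23 and 4.89 in rhTM mice. Its rhTM mice spanned the saline range, at a fold change of -0.0058, and by the table it was lower without overlap, at -0.16 ± 0.10.

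PARP9 and DTX3L form a complex of an ADP-ribosyltransferase family member and a ubiquitin ligase, and PARP14 is a related transferase. Dtx3l read 2.47, 2.17 and 1.78 in saline mice and 1.77, 2.08 and 2.28 in rhTM mice. Saline mouse 3 and rhTM mouse 1 were lowest and nearly equal, and the slide 2 mice were highest. Dtx3l had a fold change of -0.10 ± 0.22, and of 0.17 ± 0.21 by the table. Parp9 and Parp14 had fold changes of 0.02 and -0.01.

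The guanylate-binding proteins (GBP) coat and break microbial membranes and promote the sensing of LPS by caspase-11, and of the 6 measured genes 3 were higher and 3 lower in rhTM mice, with a median of -0.01, against 5 and 1 with a median of 0.12 by the table. Gbp2, which acts in that pathway, read 4.07, 4.05 and 3.85 in saline mice and 3.72, 3.74 and 3.92 in rhTM mice. Its groups overlapped only between saline mouse 3 and rhTM mouse 3. At -0.20 ± 0.13 (SE, exact permutation p = 0.2) Gbp2 was lower in rhTM mice by the scanner output, and the table gave 0.02 ± 0.14. Gbp5 read 1.68, 1.38 and 1.18 in saline mice and 1.48, 1.27 and 1.64 in rhTM mice. Gbp7, whose promoter holds 2 GAS cores, read 0.56, 0.23 and -0.15 in saline mice and 0.04, -0.08 and 0.45 in rhTM mice. Both genes were highest in the 2 mice of slide 2 and lowest in saline mouse 3. The fold change of Gbp5 was 0.05 ± 0.17, and 0.33 ± 0.11 without overlap by the table (limma, adjusted p = 0.317). The fold change of Gbp7 was -0.07 ± 0.22, and 0.35 ± 0.18 by the table.

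The immunity-related GTPases (IRG) attack or guard vacuoles, with Irgm1 and Irgm2 regulating effectors such as Iigp1 and, like Igtp, carrying a changed nucleotide-binding motif. Iigp1 had the highest fold change of all members. It read 4.47, 4.18 and 4.11 in saline mice and 4.83, 4.39 and 4.55 in rhTM mice. Only rhTM mouse 2 lay below saline mouse 1, and all other rhTM values were above all saline values. The difference in Iigp1 was 0.33 ± 0.17 (SE, limma, adjusted p = 0.9999, exact permutation p = 0.2), a 1.26-fold difference with a 95% interval of -0.06 to 0.73. With the table's assignment the groups of Iigp1 did not overlap, at 0.39 ± 0.14 (limma, adjusted p = 0.323).

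Irgm1 read 3.51, 3.28 and 3.00 in saline mice and 3.32, 3.13 and 3.47 in rhTM mice, a fold change of 0.04 ± 0.17 in groups that overlapped throughout. By the table it was higher without overlap, at 0.29 ± 0.12 (limma, adjusted p = 0.343), while its 3 probes ran from -0.11 to 0.29. Irgm2 read 3.95, 3.71 and 3.22 in saline mice and 3.00, 3.61 and 3.75 in rhTM mice. Each group of Irgm2 held 1 low mouse, saline mouse 3 and rhTM mouse 1, and the fold change was -0.17 ± 0.26, which turned to 0.05 ± 0.27 by the table. Igtp, with a nearly identical promoter window, varied less, with an SD over all 6 mice of 0.12 against 0.36 for Irgm2, and had a fold change of -0.04.

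CXCL9 and CXCL10 recruit T cells and natural killer cells through CXCR3. Cxcl10 varied most of all members. It read 3.76, 3.49 and 2.42 in saline mice and 2.22, 3.59 and 3.50 in rhTM mice. In each group 2 mice were high and 1 was low by more than 1 log2 unit, again saline mouse 3 and rhTM mouse 1. The difference in Cxcl10 was -0.12 ± 0.47 (95% interval from limma -1.25 to 1.01), so a change beyond 2-fold lay within the interval of this gene, and by the table it was -0.0065 ± 0.48. In Cxcl9 these mice were not low, at 3.40 in saline mouse 3 and at 3.70, its highest value, in rhTM mouse 1.

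Tap1 carries peptides into the endoplasmic reticulum, Psmb8 and Psmb9 encode immunoproteasome subunits, and Cd274 encodes PD-L1, a ligand that restrains T cells. Tap1 read 3.21, 3.21 and 2.93 in saline mice and 3.48, 2.96 and 3.18 in rhTM mice. Its groups overlapped, its fold change was 0.09 ± 0.17 and became 0.26 ± 0.13 under the table's assignment, and its 2 probes gave by the scanner output -0.22 and 0.09. Psmb9 was the steadiest member, with an SD over all 6 mice of 0.03 and a fold change of 0.0059 (95% interval from limma -0.25 to 0.26). Cd274 read 2.45, 2.28 and 2.23 in saline mice and 2.74, 2.26 and 2.36 in rhTM mice. Apart from the high rhTM mouse 1 its values were interleaved, and the fold change was 0.13 ± 0.16, and 0.26 ± 0.13 without overlap by the table.

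**Figure D4:**
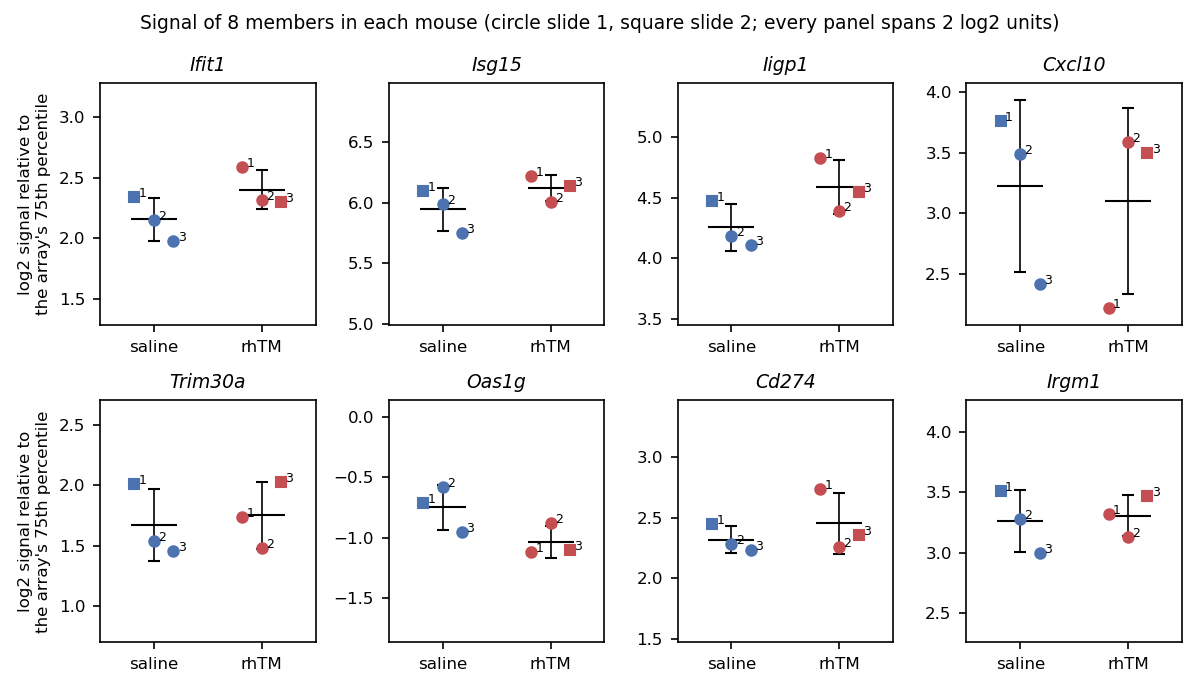
Log2 signal of 8 members relative to the 75th percentile of each array in 3 saline (blue) and 3 rhTM (red) mice, numbered by mouse, with circles for slide 1, squares for slide 2, and the group mean ± SD as bars. For Trim30a the 2 squares are the highest points, and for Cxcl10 saline mouse 3 and rhTM mouse 1 lie more than 1 log2 unit below the other 4 mice.

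The upstream pathway was described by a list of 58 ligands, inducers, receptors, kinases, STATs, adaptors and feedback inhibitors, of which 49 were tested. None passed adjustment (limma, lowest adjusted p = 0.9999), 26 were higher and 23 lower in rhTM mice, and the median was 0.03. At an unadjusted p under 0.05 limma called 1 of the 49, the receptor kinase gene Tyk2, and 1.86% of all genes. No overlap between groups was found for 1 gene (Ifnab, lower), or 2.04% against 5.52% of all genes. With the table's assignment 20 were higher and 29 lower, with a median of -0.04 and 0 passing adjustment, and 3 genes were higher and 6 lower without overlap (18.4%, against 21.7%). At an unadjusted p under 0.05 limma then called 2 as higher (Ifna11, 0.99, and Ifna13, 0.71), against 6.95% of all genes. It called 2 as lower (Ifna5 and Ifngr2, each -0.34), and 2278 of 16312 genes in either direction. The probes of these Ifna genes were dim. Ifnb1 did not pass the filter on dim probes.

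Tyk2 read -0.13, 0.19 and -0.22 in saline mice and -0.75, -0.18 and -0.70 in rhTM mice. Its rhTM mice 1 and 3 were below all saline mice, and rhTM mouse 2 was not. The difference in Tyk2 was -0.50 ± 0.20 (SE, limma, adjusted p = 0.9999, exact permutation p = 0.2), and -0.46 ± 0.21 by the table. Stat2 read 3.58, 3.47 and 3.33 in saline mice and 3.66, 3.74 and 3.51 in rhTM mice. Only rhTM mouse 3 lay within the saline range of Stat2, at a fold change of 0.18 ± 0.13 (exact permutation p = 0.2), and of 0.07 ± 0.13 by the table. Its other, dimmer probe gave -0.15, and 0.43 by the table.

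Ifng, the gene of interferon gamma, was dim. It read -3.54, -3.51 and -3.19 in saline mice and -2.91, -3.98 and -2.85 in rhTM mice, with rhTM mouse 2 lowest and the other rhTM mice highest. The difference in Ifng was 0.17 ± 0.31, and with the table's assignment 0.46 ± 0.26. Socs1, a feedback inhibitor of the JAK kinases, read 0.63, 0.39 and 0.15 in saline mice and 0.56, 0.54 and 0.69 in rhTM mice. The rhTM mice of Socs1 were close together and reached by saline mouse 1 alone, at a fold change of 0.21 ± 0.15 (exact permutation p = 0.3), and by the table its groups did not overlap, at 0.26 ± 0.13. Socs3, the inhibitor best known for signalling by IL-6, was at 5.74 in rhTM mouse 1 and between 4.42 and 4.71 in the other 5 mice. It was named after its values were seen, since the table called it and the phosphatase gene Ptpn2 once the slide entered as a block, a fit that called 2.65% of all genes. Without the block Socs3 differed by 0.35 ± 0.33 (0.42 by the table) and Ptpn2 by 0.36 ± 0.23 (0.36 by the table). That fit rests on rhTM mouse 1 alone against the saline mice.

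Markers of lung cells were present on all arrays. The summed signal of 5 alveolar type 2 markers, in multiples of the 75th percentile, ran from 962 to 1440 in saline mice and from 876 to 1270 in rhTM mice, with 5 of 5 lower in rhTM mice and, by the table, 4 of 5 higher. For 8 markers of T and natural killer cells, sources of interferon gamma, it ran from 36.0 to 63.5 and from 28.9 to 66.4. With the 2 arrays exchanged it ran from 28.9 to 57.9 in saline mice and from 59.9 to 66.4 in rhTM mice, without overlap. Of these 8 markers 6 were lower in rhTM mice (4 by the table), with a median of -0.18. Ncr1 was lower without overlap (-0.58), and at -0.19 with overlap by the table. The sum rests mostly on Gzma and Cd4, with differences of -0.02 and -0.14, and of 0.50 and 1.67 by the table. Cd4 read 4.50 in saline mouse 1 and 4.28 in rhTM mouse 3, both on slide 2, and 1.59 to 2.07 on the other arrays. For 5 markers of plasmacytoid dendritic cells, which make type I interferon, the sum ran from 221 to 316 and from 215 to 313, with 3 of 5 lower and, by the table, 3 of 5 higher. For each of the lists above, the highest sum of each group was on slide 2, in saline mouse 1 and rhTM mouse 3. Both of these mice count as rhTM by the table. No marker of these lists passed adjustment in either assignment (limma). The 5 monocyte markers summed to 337 to 362 in saline mice and 298 to 335 in rhTM mice without overlap. This sum rests mostly on Ly6c2, which differed by -0.12 (-0.08 by the table). By gene, 5 of 5 were lower and 0 passed adjustment (limma). Of the 5, Ly6c2 and Ccr2 were lower without overlap (40%, against 5.52% of all genes), and none by the table. With the 2 arrays exchanged the ranges of the sum overlapped while 5 of 5 were again lower, at a median of -0.19 in both assignments. The part of these cells in the members' values was not tested.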

How the data were processed

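The authors deposited scanner output of 6 arrays from Feature Extraction 10.7.3.1 (per the file headers; the submitters' processing notes name 9.1), whose processed signal is a background-corrected intensity on a linear scale, not scaled between arrays. Their value table, also intensity, was an alternative. The RNA kit is RNeasy in the labels and simplyRNA in the methods. No probe was saturated, and the number of arrays limits the precision.

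From the deposited intensity, control and outlier-flagged spots were left out, spots of a probe averaged, and log2 values taken minus the 75th percentile of each array. Of 56605 probes, 398 were dropped and 32994 matched a RefSeq gene (GRCm38.p6) by unversioned accession. The brightest probe stood for a gene and was kept if all 3 arrays of either group had it well above background. R 4.3.3 and limma 3.58.1 (lmFit, eBayes) were used with Benjamini-Hochberg adjustment over all genes at 0.05, and exact two-sided permutation tests for single genes. The fits were tested on simulated data.

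Members, lists, roles and tests were chosen with earlier results of these data known. Given on every array are, in each role group, the genes with the smallest unadjusted p and the largest SD, members whose groups did not overlap in either assignment, Ifng, Stat2, Socs1 and the pathway gene with the smallest p. The same rule named Ifnb1, which was not tested, and 1 gene that is not reported here.

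Alternatives were the table (alone, with the slide as a block, without each array), the scanner output without each array or both exchanged arrays, with the slide or replicate number as a block, normexp (offset 50, on median spot signals), quantile normalization, scaling on probes above background only, no or a stricter filter, the mean of probes, and the methods' t-test.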

Additional observations from a re-analysis of the deposited data

How the results depend on the processing

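No member passed adjustment under any alternative except the table without rhTM mouse 1, where 1 was higher (Trim30a, 0.53, limma, adjusted p = 0.036, with treatment and slide not separable), so the count ranged from 0 to 1 as arrays were left out. The median fold change stayed between 0.00 and 0.11 by the scanner output except without saline mouse 3 (-0.04), and between 0.04 and 0.14 by the table. The methods' t-test called 0 members after Benjamini-Hochberg adjustment, and no member reached the fold of 2 that the methods set. Pathway genes called were 2 when the table was fitted with a slide block (Socs3, 1.18, adjusted p = 0.0377, and Ptpn2, 0.90, adjusted p = 0.0392), against 0.42 and 0.36 in the table without it.

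Members without overlap were 9 higher and 1 lower in the table, 14 and 3 without both exchanged arrays (29.2% and 6.25% of members, against 20% and 21.5% of all genes), 1 lower with normexp, quantile normalization or the other percentile (2.08%, against 2.4%, 2.76% and 3.64%), and 1 higher with the mean of probes (2.08%, against 2.6%). As each array was left out they ran from 0 to 16 higher and from 0 to 6 lower, with smaller groups that overlap less often by construction. All genes ran from 4.9% to 19.5% higher and from 4.06% to 26.6% lower, with 19.5% higher where 16 members were (33.3%, the table without rhTM mouse 1) and 8.22% lower where 6 were (12.5%, without saline mouse 3).

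The replicate numbers did not pair the mice: deviations of same-numbered mice correlated at -0.30, 0.44 and -0.45 over genes. With the replicate block, 0 members were called and the median stayed 0.04.

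Only genes given on every array above are covered here by name, and other members turned sign too, as the counts of higher and lower members show. Among those genes, signs turned in the table for Ifit2 (-0.04), Zbp1 (-0.10), Dtx3l (0.17), Gbp2 (0.02), Gbp7 (0.35, with the slide block 0.04) and Irgm2 (0.05). With the slide block, which in the table sets rhTM mouse 1 alone against the saline mice, Zbp1 (0.55, limma, adjusted p = 0.0573), Ifit2 (0.11), Dtx3l (-0.24), Gbp2 (-0.16) and Irgm2 (-0.51) turned back, and Cxcl10 stood at -0.95. Without both exchanged arrays they turned for Ifit2 (-0.03), Dtx3l (0.05) and Gbp7 (0.21). They also turned for Ifit2 with normexp (-0.01) and the other percentile (-0.02), for Irgm1 with quantile normalization (-0.0031) and the mean of probes (-0.02), and for Tap1 with the mean of probes (-0.07). As arrays were left out of either source, fold changes spanned 0 in Irf1 (-0.14 to 0.04), Dtx3l (-0.28 to 0.37), Gbp7 (-0.26 to 0.51), Cxcl10 (-0.52 to 0.46), Ifi35 (-0.20 to 0.07), Ifit2 (-0.20 to 0.12), Usp18 (-0.12 to 0.23), Trim30a (-0.06 to 0.53), Tap1 (-0.05 to 0.35), Gbp5 (-0.06 to 0.38), Irgm1 (-0.09 to 0.37), Oasl1 (-0.07 to 0.48), Irgm2 (-0.38 to 0.34), Cd274 (-0.01 to 0.34), Ifng (-0.03 to 0.68), Zbp1 (-0.42 to 0.48), Gbp2 (-0.27 to 0.11) and Stat2 (-0.02 to 0.24). By the scanner output, some fold changes that kept their sign were smaller without saline mouse 3, as in Isg15 (0.08), Dhx58 (0.06), Xaf1 (0.07), Socs1 (0.09) and Stat2 (0.11), and without rhTM mouse 1, as in Ifit1 (0.15), Iigp1 (0.21) and Rtp4 (0.11). The cause was not tested.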
